A study of Rattus norvegicus with 6 samples.

Results

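Voltage-gated calcium and sodium channels were followed through the rat nucleus accumbens by their genes. The genes were taken as every row of the files whose symbol begins with Cacn, or reads Scn, a number and the letter a or b. This gave 40 of the 25629 genes in the files, 26 of them calcium channel genes and 14 sodium channel genes. Of the calcium channel genes 10 encode pore-forming subunits (Cacna1), 4 encode α2δ subunits (Cacna2d), 4 encode β subunits (Cacnb) and 8 are named as γ subunits (Cacng). Of the sodium channel genes 10 encode pore-forming α subunits and 4 encode β subunits.

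The pore-forming subunit of such a channel senses the membrane voltage and selects the ion. Sodium channels carry the upstroke of the action potential, whereas calcium channels let in the calcium that drives transmitter release, dendritic signalling and gene transcription. The α2δ and β subunits bring calcium channels to the membrane and set their gating, and most γ-like proteins of the brain serve instead as auxiliary subunits of AMPA-type glutamate receptors. In the striatum, of which the accumbens is the ventral part, L-type and R-type calcium channels shape the up and down states of spiny projection neurons, and T-type channels, which open near rest, support burst firing.

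Nuclei came from punches of the nucleus accumbens of Sprague-Dawley rats, postnatal days 90 to 120. Heroin self-administration preceded the experiment in every animal and lasted until day 14, first at 1 response and later at 3 responses per infusion, with a progressive ratio test on day 12. After the last session they were injected with saline (3 libraries, replicates 1 to 3) or with naloxone, an opioid receptor antagonist (3 libraries, replicates 4 to 6), and killed 1 h later. The 12 rats, 6 male and 6 female, were pooled into 6 libraries of both sexes, so a p-value of naloxone against saline measures the spread between pools. Comparisons between classes take the library as a block. Their p-values measure the spread that remains once class and library are fitted, estimated over all classes compared in the model. Since every rat had taken heroin, no value here compares heroin with its absence.

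Counts of unique molecular identifiers (UMIs) were summed for each class of nuclei in each library. Levels are CPM, the UMIs of a gene scaled to a fixed total of the UMIs of that class in that library (counts per 1e6), and are given as mean ± SD over the 6 libraries. Reads come from the 3′ end of nuclear transcripts, so a level compares 1 gene between classes, not 1 gene with another. Nuclei were clustered without the channel genes, so that their levels did not place any nucleus in a class. Of 49 clusters 24 could be named from marker genes, and 14 classes held at least 20 nuclei in every library. The neuronal classes were Drd1 spiny-like (7536 nuclei), Drd2 spiny-like (5232), Chst9 spiny-like (3535, with high Grm8 and Oprm1), Casz1 spiny-like (1827), Drd3 GABA-like (1987), Pthlh interneuron-like (908), somatostatin interneuron-like (470) and cholinergic interneuron-like (282). The others were astrocyte-like (4602), oligodendrocyte-like (11664), oligodendrocyte precursor-like (2242), committed precursor-like (354), microglia-like (1537) and endothelial-like (410).

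The naming left 15094 nuclei in 18 unnamed clusters, between 21.0% and 27.4% of the nuclei of a saline library and between 22.7% and 28.3% of a naloxone library, and 754 in clusters with markers of several classes. The marker thresholds were set after the data were seen. Assigning nuclei one by one from marker UMIs, an alternative, gave the same name to 933 of 7536 Drd1 spiny-like nuclei (5744 unassigned). It did so for 120 of 908 Pthlh interneuron-like nuclei, with 171 assigned as oligodendrocyte precursor-like and 560 unassigned. In Casz1 spiny-like nuclei the name was the same for 790 of 1827, with 210 assigned as Chst9 spiny-like and 813 unassigned. Partial agreement was found for 242 of 470 somatostatin interneuron-like, 1117 of 1987 Drd3 GABA-like and 3220 of 5232 Drd2 spiny-like nuclei. Closer agreement was found for 3125 of 3535 Chst9 spiny-like and 11480 of 11664 oligodendrocyte-like nuclei. Libraries held 55739350 to 76272798 UMIs and 7647 to 13676 nuclei after filtering, with medians of 4259 to 6492 UMIs per nucleus. Mitochondrial genes took a median of 0.556% of the UMIs of a nucleus in naloxone replicate 5, against 0.152% to 0.340% elsewhere. Pairs of libraries shared 19 to 45 cell barcodes.

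The 40 genes together took the largest share of UMIs in the main spiny projection neurons. They made up 1.25% of the UMIs of Drd1 spiny-like nuclei and 1.21% of those of Drd2 spiny-like nuclei. Interneuron-like classes lay lower, at 0.714% in Pthlh, 0.858% in somatostatin and 0.943% in cholinergic interneuron-like nuclei. In glia the share ran from 0.463% in oligodendrocyte precursor-like and 0.331% in astrocyte-like nuclei down to 0.0855% in microglia-like and 0.0695% in oligodendrocyte-like nuclei. The depth behind a level differed accordingly, from at least 110425 channel UMIs per library in Drd1 spiny-like nuclei to as few as 129 in microglia-like and 136 in committed precursor-like nuclei.

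**Figure D1:**
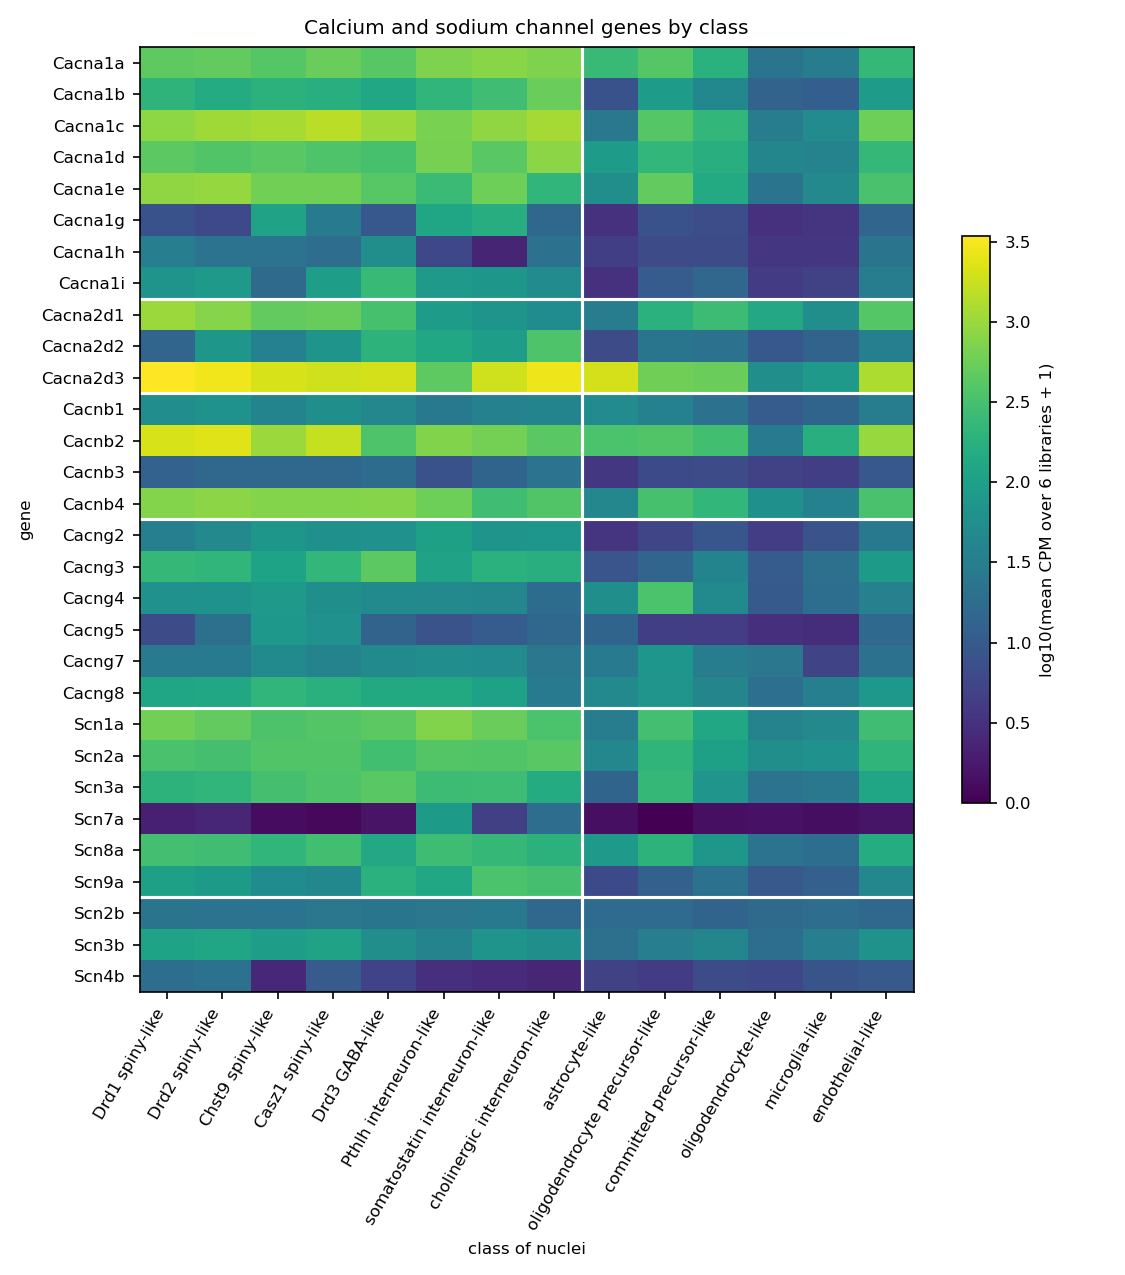
Mean level over 6 libraries (colour, log10 of CPM + 1) of 30 channel genes with at least 20 CPM in any class, by gene (rows, with white lines between subunit families) and class of nuclei (columns, with a white line between neurons and other cells). Most genes span all neuronal columns, while Scn7a, Cacna1g and Cacng5 are bright in 1 to 3 columns and Cacng4 is brightest in oligodendrocyte precursor-like nuclei.

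Of the 40 genes 32 reached a mean of 20 CPM in at least 1 class. The other 8 stayed below it in every class, with 6.25 CPM for Cacng6 in Drd3 GABA-like nuclei as their highest mean. These were Cacna1f and Cacna1s, the L-type channels of retina and skeletal muscle, Cacna2d4, Cacng1, Cacng6, the skeletal muscle sodium channel Scn4a, and Scn10a and Scn11a, the sodium channels of peripheral sensory neurons.

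The promoters of 3 members are printed to set the start of 2 class-restricted genes beside that of a broad one. Each run is the 250 bases before the RefSeq start of the gene on its own strand in assembly GRCr8, with every CG pair in capitals. Scn7a (chr3:71846285-71846534, minus strand) was highest in Pthlh interneuron-like nuclei, Cacng5 (chr10:93336668-93336917, minus strand) in Chst9 and Casz1 spiny-like nuclei, and Cacna2d3 (chr16:4918900-4919149, minus strand) was at 449 CPM or more in every neuronal class and in astrocyte-like nuclei.
Scn7a: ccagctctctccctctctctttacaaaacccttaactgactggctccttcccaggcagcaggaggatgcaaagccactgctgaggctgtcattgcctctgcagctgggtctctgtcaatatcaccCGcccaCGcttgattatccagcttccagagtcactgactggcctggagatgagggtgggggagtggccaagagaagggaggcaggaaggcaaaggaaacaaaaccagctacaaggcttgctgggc
Cacng5: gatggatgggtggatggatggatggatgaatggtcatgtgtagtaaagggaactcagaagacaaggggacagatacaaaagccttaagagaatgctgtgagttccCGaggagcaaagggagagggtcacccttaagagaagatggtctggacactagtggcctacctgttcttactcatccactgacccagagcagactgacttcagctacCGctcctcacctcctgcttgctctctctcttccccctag
Cacna2d3: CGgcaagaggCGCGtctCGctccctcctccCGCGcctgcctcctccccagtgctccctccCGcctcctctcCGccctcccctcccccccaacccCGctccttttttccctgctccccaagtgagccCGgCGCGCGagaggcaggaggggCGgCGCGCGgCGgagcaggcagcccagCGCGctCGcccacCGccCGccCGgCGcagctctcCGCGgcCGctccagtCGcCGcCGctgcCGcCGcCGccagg
Scn7a and Cacng5 have 2 CG pairs each in this window and Cacna2d3 has 34. Over all 33469 RefSeq promoter windows of this length the median was 5 CG pairs, the quartiles were 2 and 15, and 92.2% held at least 1. Entries were found for 27 of the 40 genes (30 entries), of which 14 entries held 15 or more pairs and 4 held 2 or fewer. Other members do not all follow the split of the 3 printed. Cacna2d2, whose level differed widely between neuronal classes, has 36 pairs, while Scn2a and Cacna1c, present in all of them, have 4 and 3. The count describes the letters only, and whether it bears on the levels was not tested.

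High-voltage-activated pore subunits were present in every neuronal class, and the class in which they were highest differed between them. Cacna1b (N-type, a channel of presynaptic terminals, ENSRNOG00000004560) ran from 487 to 565 CPM (median 529.8) in cholinergic interneuron-like nuclei, above somatostatin interneuron-like nuclei (from 233 to 322 CPM) in 6 of 6 libraries. Against the mean of Drd1 and Drd2 spiny-like nuclei it was higher by 1.39 on the log2 scale (edgeR adjusted p = 3.59e-33). Cacna1d, the L-type subunit that opens at lower voltages and serves pacemaking, was also highest there, at 838 ± 82.5 CPM against 641 ± 40.1 CPM in Pthlh interneuron-like and 437 ± 21.4 CPM in Drd1 spiny-like nuclei. In those nuclei, which fire on their own in the striatum, the R-type subunit Cacna1e was in contrast low, at 211 ± 23.6 CPM against 939 ± 40.8 CPM in Drd2 spiny-like and 885 ± 35.9 CPM in Drd1 spiny-like nuclei (log2 difference -2.33, SE 0.16, adjusted p = 2.57e-23).

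Cacna1a, the P/Q-type subunit of fast transmitter release, was highest in the 3 interneuron-like classes. It reached 803 ± 117 CPM in somatostatin, 708 ± 49.5 CPM in Pthlh and 699.8 ± 59.6 CPM in cholinergic interneuron-like nuclei, whose ranges over libraries overlap, against 462 ± 26.2 CPM in Drd1 spiny-like nuclei. Cacna1c, the main L-type subunit of brain and heart, followed another order. It ran from 1357 to 1587 CPM (median 1483) in Casz1 spiny-like nuclei, above Chst9 spiny-like nuclei (from 1123 to 1204 CPM) in every library, and was lowest among neurons in Pthlh interneuron-like nuclei at 672 ± 37.0 CPM.

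The 3 T-type genes, which encode channels that open near the resting potential, divided the neuronal classes. Cacna1g (ENSRNOG00000060528) ran from 147 to 176 CPM (median 158) in somatostatin interneuron-like, from 107 to 144 CPM (median 119.8) in Pthlh interneuron-like and from 104 to 111 CPM (median 107) in Chst9 spiny-like nuclei. Drd1 spiny-like nuclei held only from 5.65 to 9.15 CPM and Drd2 spiny-like nuclei 5.04 ± 0.941 CPM, so the ranges lie far apart. The log2 differences from the mean of Drd1 and Drd2 spiny-like nuclei were 4.41, 4.10 and 3.96 (edgeR adjusted p = 2.92e-51, 1.11e-54 and 8.47e-61).

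Cacna1i took the opposite course in Chst9 spiny-like nuclei. It stood at 15.5 ± 3.33 CPM there and at 93.9 ± 10.1 CPM in Casz1 spiny-like nuclei, while Drd3 GABA-like nuclei ran from 232 to 258 CPM (median 246). Chst9 spiny-like nuclei were thus lower than the Drd1 and Drd2 mean by 2.41 on the log2 scale (edgeR: log2 difference -2.41, SE 0.10, adjusted p = 9.61e-37) and Drd3 GABA-like nuclei higher, with 245 ± 8.67 CPM against 65.9 ± 4.81 CPM in Drd1 spiny-like nuclei (adjusted p = 9.20e-32). Cacna1h was likewise highest in Drd3 GABA-like nuclei (54.4 ± 8.63 CPM), followed by Drd1 (31.8 ± 3.35 CPM) and Drd2 (21.1 ± 2.01 CPM) spiny-like nuclei. In somatostatin interneuron-like nuclei, where Cacna1g was highest, Cacna1h was at a mean of 1.34 CPM (log2 difference -4.42, SE 0.38, adjusted p = 5.29e-18).

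**Figure D2:**
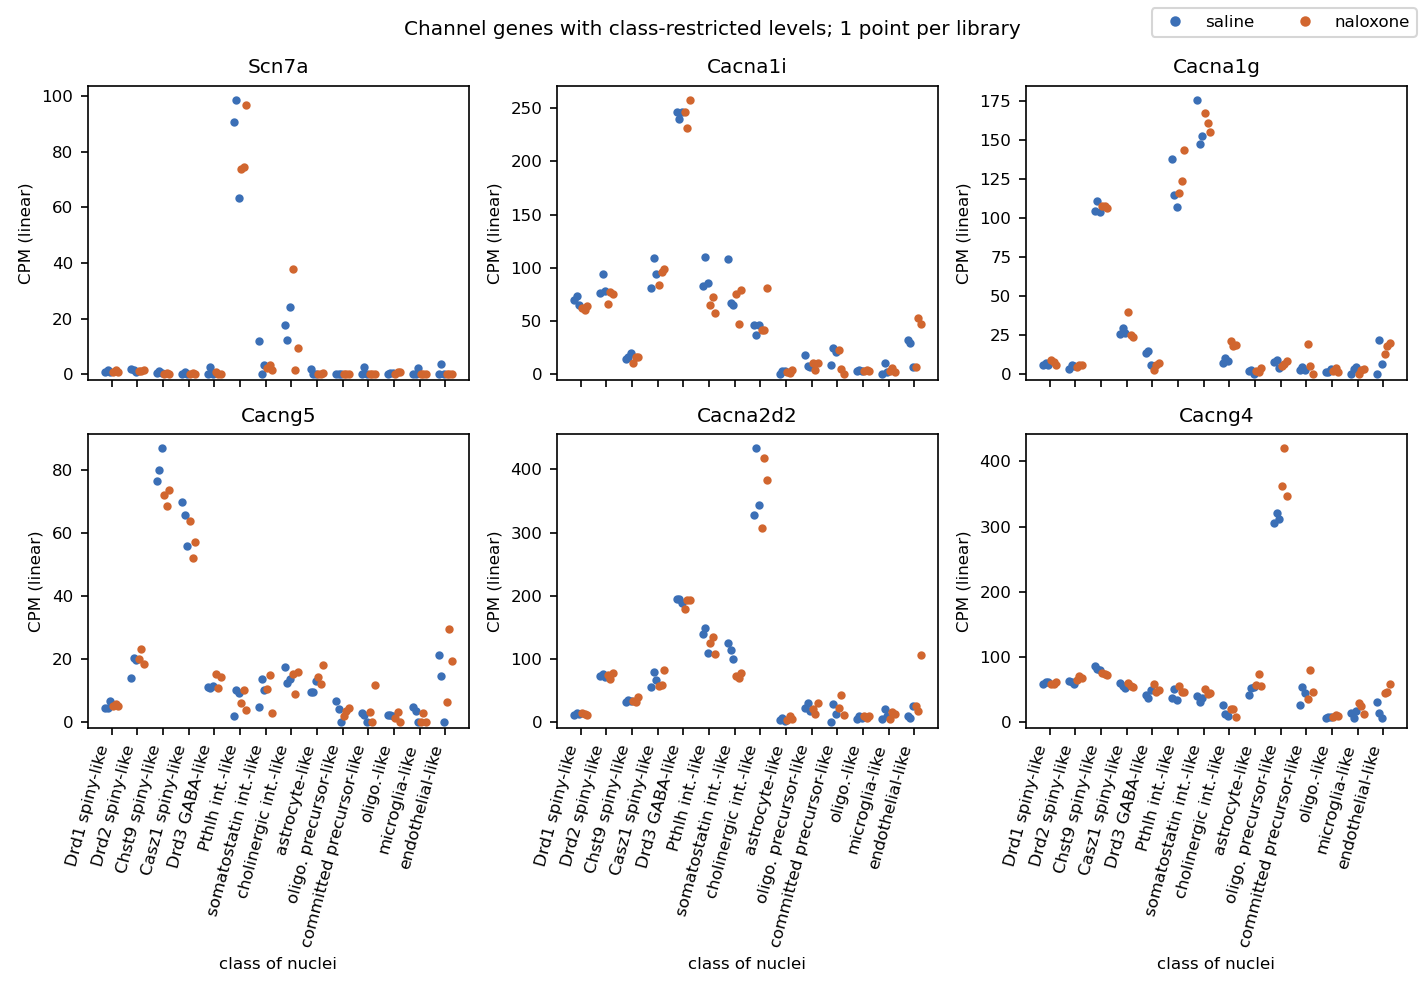
CPM (linear axis from 0) of Scn7a, Cacna1i, Cacna1g, Cacng5, Cacna2d2 and Cacng4 in each class of nuclei, 1 point per library, saline in blue and naloxone in orange. In each panel the libraries of the highest class lie above every library of Drd1 and Drd2 spiny-like nuclei, and the second class is a clear step below for Scn7a and Cacng4.

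Among the α2δ genes, which encode extracellular subunits that carry channels to the synapse, Cacna2d1 and Cacna2d2 ran against each other. Cacna2d1, which encodes the main gabapentin-binding protein, ran from 977 to 1085 CPM (median 997) in Drd1 spiny-like nuclei and stood at 789 ± 32.7 CPM in Drd2 spiny-like nuclei. The 3 interneuron-like classes had far less, at 86.4 CPM (Pthlh), 67.5 CPM (somatostatin) and 51.1 CPM (cholinergic), with log2 differences of -3.64, -4.07 and -4.33 (edgeR adjusted p = 6.66e-30, 2.97e-29 and 8.73e-31). Cacna2d2 (ENSRNOG00000015835) ran instead from 307 to 433 CPM (median 363) in cholinergic interneuron-like nuclei and stood at 191 ± 5.98 CPM in Drd3 GABA-like and 128 ± 16.4 CPM in Pthlh interneuron-like nuclei. Cacna2d3 was high in nearly all neurons, from 3428 ± 170.3 CPM in Drd1 spiny-like nuclei to 1893 ± 171 CPM in Casz1 spiny-like nuclei, except in Pthlh interneuron-like nuclei at 449 ± 88.2 CPM (log2 difference -3.07, SE 0.22, adjusted p = 5.15e-23).

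β subunits bind the pore subunit inside the cell and control its delivery and inactivation. Cacnb2 was graded over the projection neuron classes, from 2318 ± 104 CPM in Drd2 and 2108 ± 88.0 CPM in Drd1 through 1678 ± 86.8 CPM in Casz1 to 1022 ± 32.4 CPM in Chst9 spiny-like nuclei, with 359.5 ± 34.3 CPM in Drd3 GABA-like nuclei (log2 difference -2.90, SE 0.18, adjusted p = 1.75e-26). Cacnb4 did not share this gradient. It lay at 833 CPM in Drd2, 761 CPM in Chst9 and 782 CPM in Drd3 GABA-like nuclei, and at 285 ± 48.5 CPM in somatostatin interneuron-like nuclei. Cacnb1 ranged in neurons from 25.6 CPM in Pthlh interneuron-like to 62.1 CPM in Drd2 spiny-like nuclei, and Cacnb3 was at or below a mean of 20.9 CPM in every class.

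Most Cacng genes encode AMPA receptor auxiliary proteins (TARPs). Cacng5 (ENSRNOG00000003288) ran from 68.7 to 87.1 CPM (median 75.2) in Chst9 spiny-like and from 52.3 to 70.0 CPM (median 60.6) in Casz1 spiny-like nuclei, against from 14.0 to 23.4 CPM in Drd2 and from 4.60 to 6.80 CPM in Drd1 spiny-like nuclei. The differences from the Drd1 and Drd2 mean were 2.68 and 2.44 on the log2 scale (edgeR adjusted p = 3.44e-46 and 2.82e-38). Its neighbour in the genome by RefSeq gene order, Cacng4 (ENSRNOG00000003262), was instead highest in oligodendrocyte precursor-like nuclei, from 306 to 421 CPM (median 334), against 78.5 ± 5.31 CPM in Chst9 spiny-like nuclei. Cacng8, the TARP best known from hippocampus, was highest in Chst9 spiny-like nuclei (213 ± 11.8 CPM) and lowest among neurons in cholinergic interneuron-like nuclei (26.5 ± 5.94 CPM). Its neighbour Cacng7 was highest in oligodendrocyte precursor-like nuclei (72.1 ± 10.4 CPM) and lay between 24.6 and 52.3 CPM in neurons. Cacng3 was highest in Drd3 GABA-like nuclei (435 ± 34.9 CPM) and Cacng2, the TARP called stargazin, in Pthlh interneuron-like nuclei (from 83.5 to 113 CPM against from 25.5 to 41.4 CPM in Drd1 spiny-like nuclei).

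Sodium channel α genes formed a common base with class-restricted additions. Scn2a, the channel of the axon initial segment of projection neurons, ranged between neurons from 294 CPM in Drd3 GABA-like to 424 CPM in cholinergic interneuron-like nuclei. Scn8a, the channel of mature nodes and initial segments, lay between 135 CPM in Drd3 GABA-like and 298 CPM in Drd1 spiny-like nuclei. Scn1a, the main sodium channel of fast-spiking interneurons, ran from 656 to 798 CPM (median 736) in Pthlh interneuron-like nuclei, above Drd1 spiny-like nuclei (from 554 to 632 CPM) in every library, though its fitted log2 difference from the spiny mean was only 0.16 (edgeR adjusted p = 0.0851). With TMM-scaled library sizes the order turned, to 763 CPM in Drd1 spiny-like and 737 CPM in Pthlh interneuron-like nuclei. Scn3a, the channel prominent in the embryonic brain, was highest in Drd3 GABA-like (421 ± 25.8 CPM) and Casz1 spiny-like (369 ± 27.1 CPM) nuclei, against 193 ± 15.7 CPM in Drd1 spiny-like nuclei. Scn9a, best known from nociceptors, was highest in somatostatin (from 274 to 439 CPM (median 327)) and cholinergic (from 261 to 365 CPM (median 310.3)) interneuron-like nuclei, whose libraries overlap.

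Of the 14 classes Scn7a was high in 1. It (ENSRNOG00000029342) encodes a channel that opens with sodium concentration rather than voltage and had 583 UMIs in Pthlh interneuron-like nuclei. Its saline libraries stood at 90.6, 98.7 and 63.4 CPM and its naloxone libraries at 73.6, 74.7 and 96.8 CPM (log2 difference 5.78 from the mean of Drd1 and Drd2 spiny-like nuclei, SE 0.18, edgeR adjusted p = 1.21e-45). Cholinergic interneuron-like nuclei followed with a wide spread, 17.1 ± 12.7 CPM on 68 UMIs in all, and no other class exceeded a mean of 3.73 CPM. Outside these classes it reached 21.1 CPM in an unnamed cluster of 176 nuclei. With at least 1000 genes per nucleus the clustering gave 578 Pthlh interneuron-like nuclei. It also gave an unnamed cluster of 309 nuclei, led by Trhde, Trh and Scn7a. Scn7a stood at 119 CPM in that unnamed cluster and at 68.9 CPM in the 578 Pthlh interneuron-like nuclei. Which class the 309 nuclei held in the first clustering was not compared. In RefSeq order Scn9a and then Scn1a lie beside Scn7a, and Scn9a was among the 14 classes highest in somatostatin interneuron-like nuclei.

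Sodium channel β genes encode proteins that anchor the channel and alter its kinetics. Scn4b, which encodes the subunit that produces resurgent current, was highest in Drd2 (20.4 ± 3.54 CPM) and Drd1 (17.8 ± 4.34 CPM) spiny-like nuclei and near absent from Chst9 spiny-like nuclei (1.45 ± 0.829 CPM, log2 difference -3.86, SE 0.18, edgeR adjusted p = 8.88e-35). Its neighbour Scn2b was at 12.6 to 25.5 CPM in all 14 classes, neurons and glia alike. Scn3b was highest in Drd2 (123 ± 13.2 CPM) and Drd1 (111 ± 7.79 CPM) spiny-like nuclei and lowest among neurons in Pthlh interneuron-like nuclei (37.0 ± 6.91 CPM).

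Drd1 and Drd2 spiny neurons, the direct-pathway and indirect-pathway types of the striatum, were compared within libraries. Of 32 channel genes that passed the filter on low counts 5 were higher in Drd2 and 6 were higher in Drd1 spiny-like nuclei (edgeR, adjusted p under 0.05), where of all 13000 genes tested 5.85% were higher in Drd2 and 7.56% in Drd1 spiny-like nuclei. The median log2 difference of the channel genes was 0.08. Cacna2d2 was the largest difference. Its saline libraries stood at 12.3, 14.8 and 13.5 CPM in Drd1 and at 73.4, 77.0 and 71.9 CPM in Drd2 spiny-like nuclei, and its naloxone libraries at 14.4, 12.8 and 12.5 CPM and at 75.2, 68.0 and 78.1 CPM (log2 difference 2.47, SE 0.096, adjusted p = 5.81e-39). No Drd2 library came near a Drd1 library.

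Cacng5 was the second gene higher in Drd2 spiny-like nuclei (log2 difference 1.83, SE 0.12, adjusted p = 2.92e-24), and Cacng2 (0.43), Cacnb1 (0.24) and Cacna1i (0.24) followed with adjusted p of 5.40e-05, 0.0169 and 0.0212. Higher in Drd1 spiny-like nuclei were 2 T-type genes, Cacna1h (log2 difference -0.60, SE 0.084, adjusted p = 1.18e-08) and Cacna1g (log2 difference -0.41, SE 0.14, adjusted p = 0.0335), the N-type gene Cacna1b (log2 difference -0.41, SE 0.067, adjusted p = 8.23e-07) and the L-type gene Cacna1d (log2 difference -0.21, SE 0.073, adjusted p = 0.0366). Scn1a (-0.30, adjusted p = 0.00907) and Scn9a (-0.30, adjusted p = 0.00276) completed the list. Of these 11 genes 10 had the same sign in 6 of 6 libraries, and Cacnb1 in 5 of 6. Cacna2d3, Cacna2d1 and Cacna1c also had 1 sign in all 6 libraries, but with adjusted p of 0.512, 0.180 and 0.0816. Leaving out saline replicate 2 or naloxone replicate 5 kept 7 of the 11 calls, and DESeq2 kept 8, each in the same direction.

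**Figure D3:**
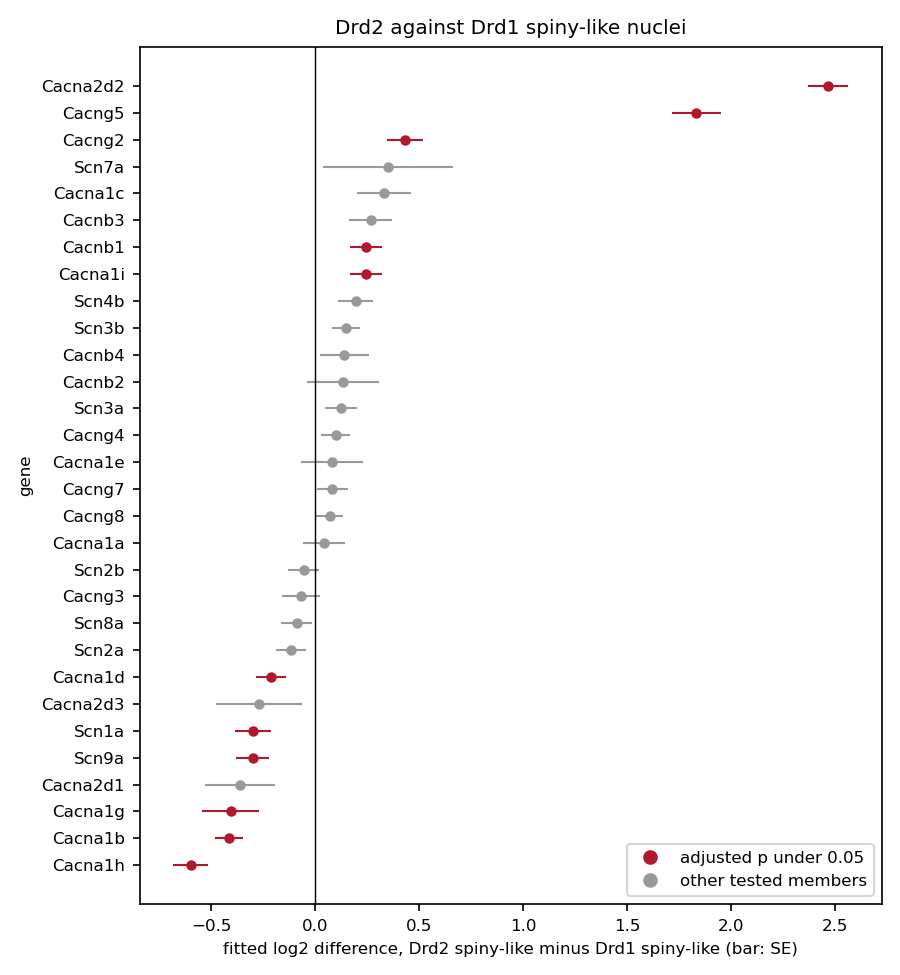
Fitted log2 difference between Drd2 and Drd1 spiny-like nuclei for 30 of the 32 tested channel genes (points, with bars of 1 SE), in red where the edgeR adjusted p is under 0.05. Cacna2d2 and Cacng5 stand apart on the right at 2.47 and 1.83, and the 6 genes higher in Drd1 spiny-like nuclei reach from -0.21 to -0.60.

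The other neuronal classes differed from the Drd1 and Drd2 mean at 22 to 28 of the 32 channel genes. Chst9 spiny-like nuclei had 7 higher and 18 lower (24.3% and 26.3% of all genes), and Casz1 spiny-like nuclei 9 higher and 13 lower (11.7% and 17.4%). Drd3 GABA-like nuclei had 9 higher and 16 lower (21.1% and 29.1%), and Pthlh interneuron-like nuclei 9 higher and 15 lower (26.4% and 29.0%). In somatostatin interneuron-like nuclei 7 were higher and 17 lower (18.5% and 26.3%), and in cholinergic interneuron-like nuclei 10 were higher and 18 lower (22.2% and 28.3%). The median log2 difference of the channel genes was below 0 in each of these comparisons, from -0.14 (Pthlh) to -0.62 (cholinergic), while the median of all genes lay between -0.09 and 0.00.

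The scaling of the libraries moves such differences. The TMM-scaled log2 difference minus that of plain CPM had a median over the channel genes of -0.11 (Casz1), -0.20 (Chst9), -0.28 (Drd3 and Pthlh), -0.33 (somatostatin) and -0.21 (cholinergic), and of -0.37 in astrocyte-like, -0.29 in oligodendrocyte-like and oligodendrocyte precursor-like, -0.22 in committed precursor-like, -0.58 in endothelial-like and -0.73 in microglia-like nuclei. Levels given as highest are in plain CPM, and with TMM-scaled library sizes 30 of the 32 genes of at least 20 CPM had the same highest class, all but Scn1a and Scn2b. Among called neuronal differences the sign in plain CPM was the opposite for Cacna1d and Cacna1i in somatostatin interneuron-like nuclei.

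Glia and endothelial-like nuclei had lower levels of nearly every channel gene than spiny neurons. In astrocyte-like nuclei 31 of 32 were lower and none higher (37.7% of all genes were lower and 39.6% higher). In oligodendrocyte-like nuclei 31 were lower and 0 higher (39.2% and 43.9% of all genes), and in microglia-like nuclei 30 and 0 (36.5% and 33.5%). Committed precursor-like nuclei had 27 lower and 0 higher (28.4% and 22.2%), and endothelial-like nuclei 26 and 0 (28.5% and 21.4%), of which 19 were lower in all 6 libraries in plain CPM. Oligodendrocyte precursor-like nuclei had 27 lower (34.5%) and 2 higher (32.8%), the TARP genes Cacng4 (log2 difference 2.16, SE 0.061, adjusted p = 6.33e-51) and Cacng7 (log2 difference 1.07, SE 0.083, adjusted p = 8.41e-21). In astrocyte-like nuclei the call for Cacng7 does not hold in plain CPM, where its mean was 101% of the spiny mean.

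Neuronal RNA was counted in the glial classes too, and its level stands beside theirs. The 6 neuronal markers Rbfox3, Snap25, Syt1, Stmn2, Gad1 and Gad2 reached 3.74% to 22.9% of their spiny level in astrocyte-like nuclei, 2.34% to 32.2% in oligodendrocyte-like and 12.1% to 40.4% in oligodendrocyte precursor-like nuclei. Of 25 channel genes with at least 20 CPM in spiny neurons, 8 exceeded this band in astrocyte-like nuclei. These included Cacna2d3 at 65.2% (2046 ± 139.6 CPM), Cacna1a at 52.1%, Cacnb1 at 87.1%, Cacng4 at 89.7% and Cacng8 at 35.0% of the spiny level. Cacna1c (2.6%) and Cacna2d1 (3.4%) were in contrast below the band in the same nuclei. Committed precursor-like nuclei exceeded a band of 15.6% to 24.2% for 15 genes, Scn3a, Scn8a and Scn2a among them but not Scn1a. Oligodendrocyte-like nuclei exceeded their band for 2 genes, Cacng7 (86.4%) and Scn2b (73.1%), and microglia-like nuclei only for Scn2b (79.8%, above a band of 3.08% to 51.6%).

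Oligodendrocyte precursors are known to carry voltage-gated channels and to receive synapses. In oligodendrocyte precursor-like nuclei 16 of the 25 genes exceeded the neuronal band, among them Cacng4 (551% of the spiny level), Cacng7 (258%), Scn3a (110%), Cacna1a (85.3%), Scn8a (65.6%) and Scn1a (55.0%). Against the mean of astrocyte-like and oligodendrocyte-like nuclei 23 channel genes were higher and 0 lower (28.8% of all genes were higher and 32.2% lower). In plain CPM 19 of the 23 were higher in all 6 libraries, while Cacna1h, Cacnb1 and Scn9a were higher in 4 or 5. The fit averages the 2 reference classes on the log scale, and Cacna2d3 counts as higher on that average, with 582 CPM against 2046 CPM in astrocyte-like and 54.2 CPM in oligodendrocyte-like nuclei. The largest differences were in Cacng4 (log2 difference 3.98, SE 0.077, adjusted p = 2.57e-63), Cacna1c (log2 difference 3.92, SE 0.13, adjusted p = 1.79e-45), Cacna1e (log2 difference 3.87, SE 0.15, adjusted p = 4.22e-41), Scn3a (log2 difference 3.79, SE 0.11, adjusted p = 1.07e-50) and Scn1a (log2 difference 3.21, SE 0.10, adjusted p = 7.70e-46). The summed neuronal markers were also higher in precursor-like nuclei, at 21.7% of the spiny level against 5.01% in astrocyte-like and 6.05% in oligodendrocyte-like nuclei, and their part in the result was not tested. Endothelial-like nuclei had no channel gene above their neuronal band, which reached from 43.4% to 98.6%.

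**Figure D4:**
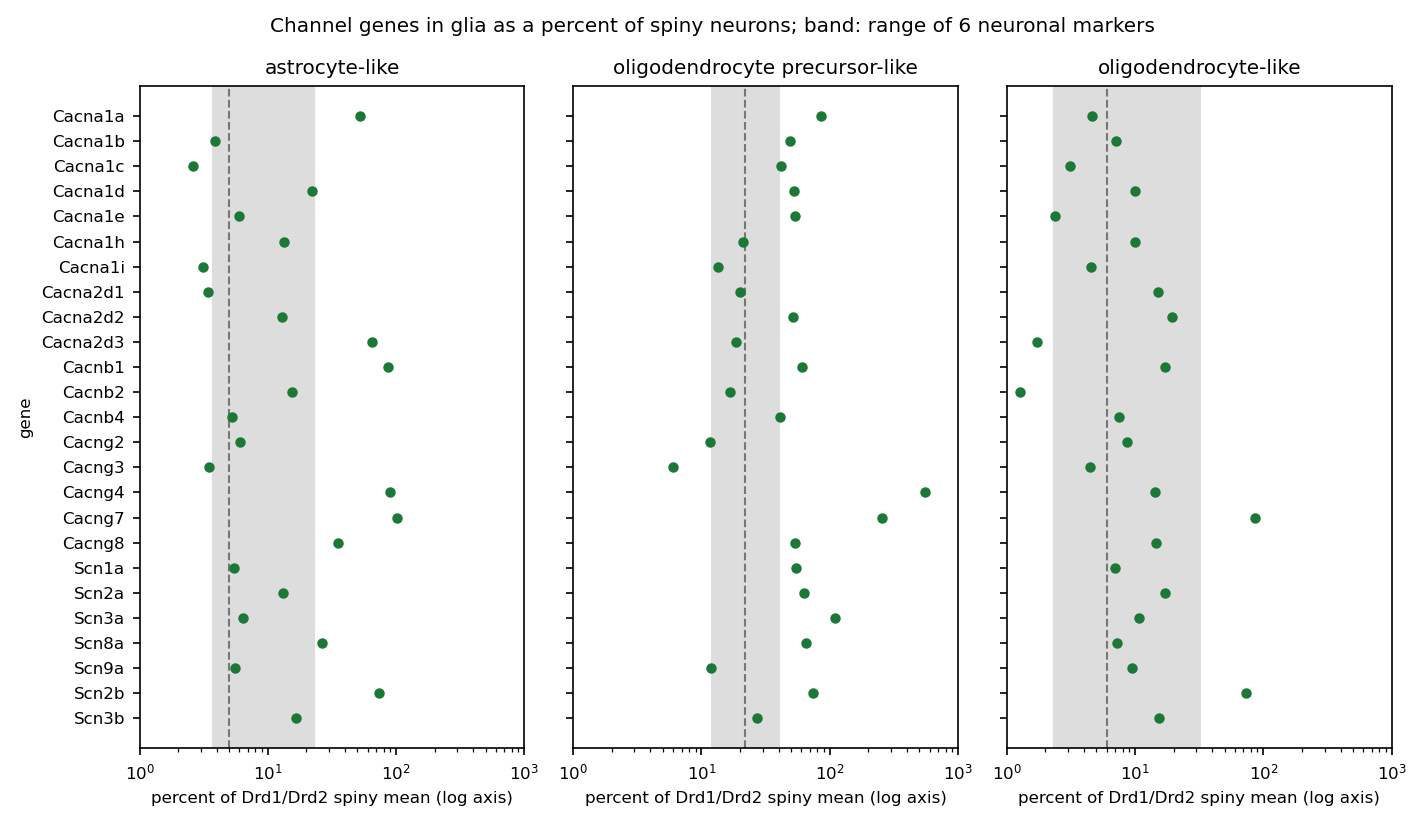
Level of 25 channel genes in astrocyte-like, oligodendrocyte precursor-like and oligodendrocyte-like nuclei as a percent of the mean of Drd1 and Drd2 spiny-like nuclei (log axis). The grey band is the range of 6 neuronal marker genes and the dashed line their sum. 8 genes lie right of the band in astrocyte-like, 16 in oligodendrocyte precursor-like and 2 in oligodendrocyte-like nuclei.

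Named classes were not uniform. Drd2 spiny-like nuclei joined a cluster of 4813 and one of 419 nuclei, in which Cacna2d3 stood at 3028 and 591 CPM, Cacna1h at 22.8 and 1.1 CPM, and Cacna1g at 3.1 and 30.2 CPM. Cacna1h was thus lower and Cacna1g higher in the smaller cluster. Between the 2 astrocyte-like clusters Cacna1d stood at 49.0 and 213 CPM and Cacnb2 at 415 and 126 CPM. These are pooled values over all libraries, given as a description.

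Several channel genes were highest outside the 14 classes, among clusters of at least 100 nuclei. Cacna2d1 stood at 3355 CPM in an unnamed cluster of 307 nuclei led by Zfp804b, Igf1 and Il1rapl2, where Scn11a was also highest at 13.4 CPM. Cacna2d2 reached 494 CPM in an unnamed cluster of 562 nuclei led by Tafa4, Ndst4 and Sema3c, and Scn1a 834 CPM and Scn8a 386 CPM in an unnamed cluster of 150 nuclei led by Ebf3 and Slc17a6. Scn9a reached 371 CPM in an unnamed cluster of 1053 nuclei with Klhl1 and Pde11a among its leading genes. Cacna1c reached 2094 CPM in the mural-like cluster (228 nuclei, named but under the minimum per library), vascular cells in which this L-type channel drives contraction. Scn2b (81.4 CPM), Scn4b (43.9 CPM) and Cacnb1 (75.2 CPM) were highest in an unnamed cluster of 1435 nuclei with a median of 1536 UMIs, led by Chchd10, Hpca and Calm3.

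Partner genes were followed as lists of calcium channel partners (13 tested), sodium channel partners (12 tested) and calcium extrusion genes (8 tested). Between Drd2 and Drd1 spiny-like nuclei 3 calcium channel partners were higher and 2 lower, 2 extrusion genes higher and 1 lower, and 1 sodium channel partner higher and 0 lower. Chst9 spiny-like nuclei had 8 of 12 sodium channel partners lower than the Drd1 and Drd2 mean and 2 higher, and Pthlh interneuron-like nuclei 6 lower and 3 higher. Of the calcium channel partners 7 were higher and 3 lower in Pthlh interneuron-like nuclei, and 4 higher and 7 lower in Drd3 GABA-like nuclei. Beside these counts, 5.85% of all genes were higher and 7.56% lower in Drd2 against Drd1 spiny-like nuclei. Against the Drd1 and Drd2 mean, 24.3% of all genes were higher and 26.3% lower in Chst9 spiny-like nuclei. The shares were 26.4% and 29.0% in Pthlh interneuron-like and 21.1% and 29.1% in Drd3 GABA-like nuclei.

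Naloxone against saline asked which channel genes differed 1 h after the antagonist in rats with the same heroin history. Summed over all nuclei, 0 of 40 channel genes passed the adjusted threshold with edgeR (0.0404% of 17342 genes did), 6 had an unadjusted p under 0.05 (beside 14.1% of all genes), and DESeq2 called 1 (among 396 genes called in all). In such a sum, fewer cells of a type and less RNA per cell cannot be told apart. The median log2 change of the channel genes was -0.028, and that of all genes 0.009. The gene with the smallest p, Cacnb3, stood at 11.1, 11.8 and 11.5 CPM in the saline and at 8.24, 9.58 and 8.91 CPM in the naloxone libraries, which do not overlap (log2 -0.37, SE 0.091, edgeR adjusted p = 0.179, and 0.0256 with DESeq2). Libraries of the groups lay apart for 21.4% of all tested genes in this sum. Without naloxone replicate 5, the library with the highest mitochondrial share, 4 channel genes were called, Cacna1g, Cacna2d2 and Scn4b among them. The share of all genes called in that fit is not reported here, so these calls have no background beside them.

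Within classes, 0 channel genes were called in 13 of 14. In the spiny classes the tested genes numbered 30 to 33, of which 1 to 4 had an unadjusted p under 0.05 with edgeR, beside 0.229% of all genes called in Drd1, 0.653% in Drd2, 0.105% in Chst9 and 0.038% in Casz1 spiny-like nuclei. DESeq2 called 1 of them in Drd2 spiny-like nuclei, among 156 genes called there, and 0 in the other 3. An unadjusted p under 0.05 was found for more of all genes than of the channel genes, at 12.9% in Drd1, 13.4% in Drd2, 8.85% in Chst9 and 8.83% in Casz1 spiny-like nuclei, beside 12.1%, 9.09%, 6.67% and 3.23% of the channel genes. Cacnb1 had the smallest p in 3 of these classes. In Casz1 spiny-like nuclei it stood at 67.8, 64.8 and 63.7 CPM after saline and at 42.5, 45.6 and 51.6 CPM after naloxone (log2 -0.46, edgeR adjusted p = 0.197). The groups do not overlap there, nor in Chst9 (40.2, 45.1 and 46.4 against 34.0, 32.4 and 34.6 CPM, adjusted p = 0.283) or Drd1 spiny-like nuclei (55.6, 57.6 and 58.5 against 44.3, 45.7 and 53.4 CPM, adjusted p = 0.275). Over all tested genes the groups lay apart for 14.7% in Casz1, 15.3% in Chst9 and 18.7% in Drd1 spiny-like nuclei. Cacnb1 was picked by its smallest p, which favours groups that lie apart.

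Drd2 spiny-like nuclei differed in this gene, with 58.6, 67.2 and 57.4 CPM after saline and 51.6, 68.6 and 69.4 CPM after naloxone, which overlap. The difference between the classes was tested as a class by treatment term with the library as a block. Cacnb1 was the only channel gene called for Drd2 against Drd1 spiny-like nuclei (log2 0.35, SE 0.089, edgeR adjusted p = 0.0418, with 1.42% of 13350 genes called). The call was lost with DESeq2 (adjusted p = 0.537) and without saline replicate 1 (0.141), saline replicate 3 (0.340), naloxone replicate 5 (0.395) or naloxone replicate 6 (0.104). For Chst9 against Drd1 and against Drd2 spiny-like nuclei 0 channel genes were called with edgeR (0.0767% and 0.254% of all genes), with 3 and 4 at an unadjusted p under 0.05 (beside 918 of 13041 and 1031 of 12580 genes), and 0 with DESeq2.

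In Drd2 spiny-like nuclei the smallest p belonged to Scn3a. It stood at 234, 230 and 232 CPM after saline and at 188, 184 and 195 CPM after naloxone, groups that lie apart (log2 -0.28, SE 0.071, edgeR adjusted p = 0.0981). Groups lay apart for 19.6% of all tested genes in this class. DESeq2 and the fit without a filter on low counts called Scn3a. Scn4b was highest in naloxone replicate 5 in 3 spiny classes, with 24.8 CPM in Drd1, 27.0 CPM in Drd2 and 14.7 CPM in Casz1 spiny-like nuclei, against at most 20.3, 20.6 and 9.76 CPM in the other libraries. That library also has the highest share of mitochondrial UMIs, whose part in the result was not tested.

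**Figure D5:**
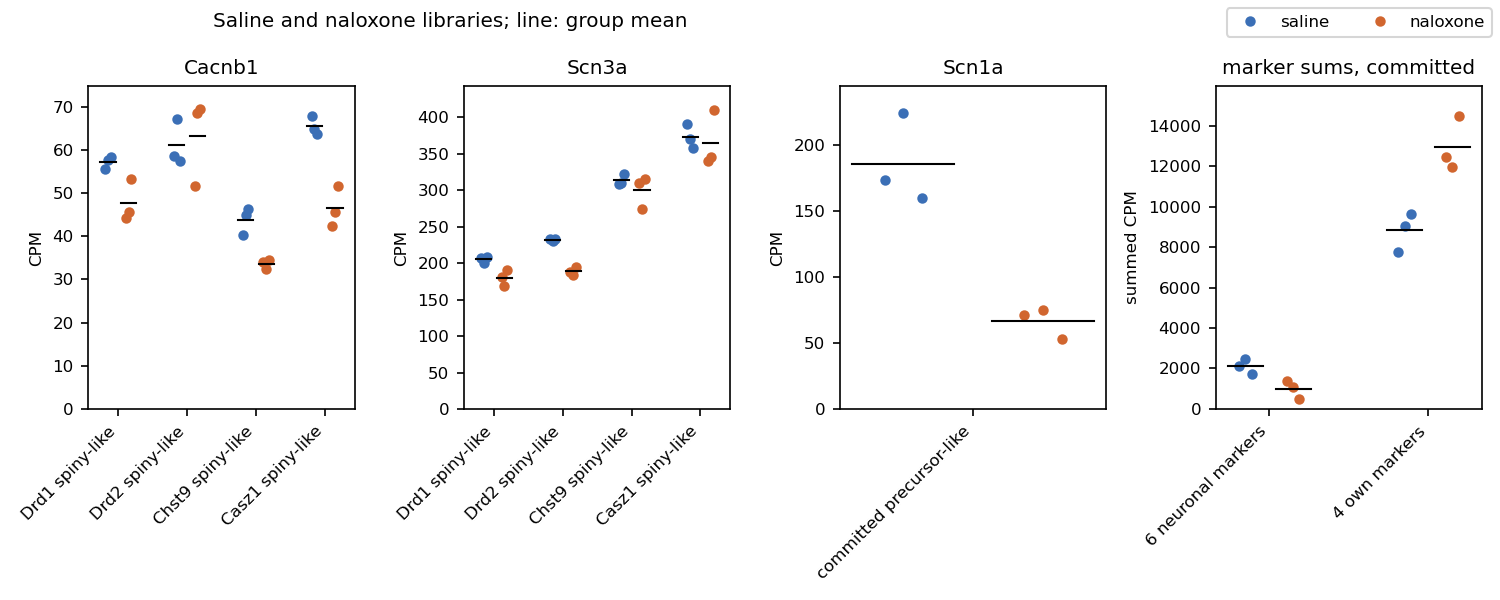
CPM of Cacnb1 and Scn3a in 4 spiny classes and of Scn1a in committed precursor-like nuclei, and the summed CPM of 6 neuronal and 4 committed precursor markers in the latter, 1 point per library (saline blue, naloxone orange, lines at group means, axes from 0). Cacnb1 lies lower after naloxone in 3 classes and overlaps in Drd2 spiny-like nuclei, and Scn1a and the neuronal markers lie lower together in committed precursor-like nuclei.

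The 1 call within a class was Scn1a in committed precursor-like nuclei, the stage between oligodendrocyte precursors and myelinating cells. Saline libraries stood at 173, 224 and 160 CPM on 59, 91 and 60 UMIs, and naloxone libraries at 70.8, 75.2 and 53.2 CPM on 22, 14 and 9 UMIs. The groups do not overlap, and Scn1a fell by 1.45 on the log2 scale (SE 0.25, edgeR adjusted p = 0.0409, with 0.439% of 5240 genes called and 0.363% called lower). Behind these sums stand 55, 93 and 59 nuclei of the saline libraries and 64, 52 and 31 of the naloxone libraries. The call was lost without saline replicate 1 (adjusted p = 0.187), saline replicate 2 (0.129), saline replicate 3 (0.0708) or naloxone replicate 5 (0.125).

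In the same nuclei 16 of 19 tested channel genes had a negative log2 change, with a median of -0.77 beside 0.024 over all genes. All 6 neuronal markers were detected and summed to 2143, 2448 and 1752 CPM after saline and to 1401, 1080 and 485 CPM after naloxone. The 4 committed precursor markers went the other way, from 7766 to 9655 CPM after saline and from 11956 to 14494 CPM after naloxone. The 6 astrocyte markers summed to 326, 205 and 277 CPM after saline and to 77.3, 156 and 29.5 CPM after naloxone, and the 4 oligodendrocyte precursor markers to 2084, 2980 and 2417 CPM and to 4318, 4243 and 5176 CPM. The neuronal and astrocyte markers thus moved with Scn1a and both precursor lists against it, and their part in the result was not tested. An unadjusted p under 0.05 was found for 7 of the 19 channel genes (36.8%) and for 14.2% of all genes.

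Elsewhere the smallest p went to different genes. In interneuron-like classes these were Scn9a in somatostatin (426, 343 and 439 CPM after saline, 311, 274 and 278 CPM after naloxone, adjusted p = 0.422), Cacna1i in Pthlh (82.9, 110 and 85.5 against 64.7, 72.6 and 57.9 CPM, adjusted p = 0.407) and Cacna1g in cholinergic nuclei (7.40, 10.7 and 8.63 against 21.0, 18.0 and 18.6 CPM, adjusted p = 0.972). The groups do not overlap in these 3, and edgeR called 0.0139%, 0.0328% and 0.0% of all genes there. Groups lay apart for 11.8%, 13.2% and 10.6% of all genes in these classes, and picking by smallest p favours such genes. In Drd3 GABA-like nuclei the gene with the smallest p was Cacnb3, with groups that overlap (adjusted p = 0.748, 0.0% of all genes called). Among glia, Cacna1e in astrocyte-like nuclei (42.8, 49.5 and 40.9 against 72.1, 49.7 and 72.8 CPM, adjusted p = 0.137) and Cacnb2 in microglia-like nuclei (144, 154 and 78.9 against 203, 181 and 222 CPM, adjusted p = 0.286) did not overlap, while Cacng3 in oligodendrocyte precursor-like (adjusted p = 0.553), Cacna1e in oligodendrocyte-like (0.471) and Scn3b in endothelial-like nuclei (0.999) did. The clusters joined as oligodendrocyte-like were filled unequally by the groups. One held 204, 326 and 415 nuclei of the saline and 1096, 921 and 692 of the naloxone libraries, and another 31 nuclei of naloxone replicate 5 against 418 to 1408 of each other library. The part of this in the class values was not tested. Groups lay apart for 17.9% of all genes in astrocyte-like and 13.3% in microglia-like nuclei. Cacna1e in astrocyte-like (5.99% of the spiny level) and Cacnb2 in microglia-like nuclei (7.41%) lay within the neuronal bands of these classes. The part of neuronal RNA in their values was not tested. Of all genes edgeR called 0.961% in astrocyte-like, 0.145% in microglia-like, 0.111% in oligodendrocyte precursor-like, 0.845% in oligodendrocyte-like and 0.0% in endothelial-like nuclei. In these 9 classes 0 to 4 channel genes had an unadjusted p under 0.05, and DESeq2 called 0. The share of channel genes at that p was 16.7% in microglia-like (7.47% of all genes) and 16% in astrocyte-like nuclei (11.5%). It was 12% in somatostatin interneuron-like (6.83%), 12% in oligodendrocyte precursor-like (7.31%) and 10.3% in Pthlh interneuron-like nuclei (7.25%). In cholinergic interneuron-like nuclei it was 3.45% (4.71%), and 0% in Drd3 GABA-like (6.99%), oligodendrocyte-like (11.4%) and endothelial-like nuclei (2.57%). Over all 14 classes this share lay above that of all genes in 6.

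The class-restricted genes were also set side by side between the groups. Scn7a in Pthlh interneuron-like nuclei overlapped between the groups, as given above. Cacng4 in oligodendrocyte precursor-like nuclei stood at 306, 321 and 312 CPM after saline and at 362, 421 and 347 CPM after naloxone, groups that lie apart (log2 0.28, SE 0.096) but with an edgeR adjusted p of 0.562. Cacng5 in Chst9 spiny-like nuclei stood at 76.5, 80.2 and 87.1 CPM and at 72.3, 68.7 and 73.9 CPM, also without overlap (log2 -0.17, adjusted p = 0.635). Over all tested genes, libraries of the 2 groups lay apart for 19.6% in Drd2 spiny-like nuclei, beside 9 of 33 channel genes there (27.3%), for 20.3% in committed precursor-like nuclei (6 of 19, 31.6%) and for 7.81% in endothelial-like nuclei (0 of 16). In oligodendrocyte precursor-like nuclei, the class given for Cacng4, 13.1% of all genes lay apart (3 of 25 channel genes, 12%). In Chst9 spiny-like nuclei, given for Cacng5, 15.3% did (5 of 30, 16.7%). The share of channel genes lay above that of all genes in 7 of the 14 classes.

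Of the 37 partner genes in the files 1 passed the test in a naloxone comparison, in astrocyte-like nuclei, where 29 partner genes were tested. Of all genes in that class edgeR called 0.961%, and the groups lay apart for 17.9%. Nalcn, the sodium leak channel that sets resting excitability, rose in astrocyte-like nuclei from 18.8, 18.9 and 18.2 CPM to 29.3, 32.6 and 36.0 CPM (log2 0.85, SE 0.18, edgeR adjusted p = 0.0430). The groups do not overlap, but the call was lost with DESeq2 (adjusted p = 0.0658) and without any 1 of the 6 libraries (0.0511 to 0.172). The 6 neuronal markers summed to 239 to 399 CPM in the saline and 363 to 440 CPM in the naloxone libraries of this class, which overlap. The 6 astrocyte markers summed to 5558, 5299 and 5703 CPM after saline and to 6421, 6703 and 6839 CPM after naloxone, and thus moved with Nalcn. The part of either list in the result was not tested.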

How the data were processed

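Nuclei of 6 pooled libraries were counted with 10x 3′ chemistry. The deposited values are UMI counts per gene and barcode, not normalized, made by the authors with Cell Ranger 9.0.1 on mRatBN7.2 per the submitters' processing notes, which also name Seurat 5.2.1 and R 4.4.0. Whether reads in introns were counted is not given in the sources used here. The labels name 44592 nuclei, and the files hold 64260 barcodes.

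Barcodes under 500 detected genes or above 5% mitochondrial UMIs were dropped (61609 stayed). Doublets were called per library at 0.4% per 1000 nuclei (2649, 4.30%), which left 58960 nuclei. They were clustered with scanpy 1.11.5 and leidenalg 0.10.2 (3000 variable genes, 40 components, 15 neighbours, resolution 1.0), without the channel genes, mitochondrial genes, Xist and Y-linked genes. A cluster was named where at least 3 markers of a list stood 1.5 times above the mean of the other clusters, with a UMI in at least 10% of nuclei and at least 20% of the level of the highest cluster (40% for the defining marker).

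UMIs were summed per library and class. Sums were tested with edgeR 4.0.16 (TMM, default filter on low counts, quasi-likelihood F-test, Benjamini-Hochberg over all genes of a fit, threshold 0.05) in R 4.3.3, and the fits were tested on simulated data. Class comparisons used 1 model of class and library. Alternatives were DESeq2 1.42.0, RLE factors, no filter, dropping each library in turn, a minimum of 1000 genes, keeping doublets, resolution 0.5, nuclei assigned one by one from marker UMIs, and adjustment over all class fits. Values are given for each gene of at least 20 CPM in any class, except 2 that are not reported here. For naloxone, each called gene or else the one with the smallest p of a fit is named. Genes and lists were chosen with earlier results of these data known. Promoter windows come from RefSeq on GRCr8, another build than that of the counts.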

Additional observations from a re-analysis of the deposited data

Results flagged for a closer look

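For Cacnb1, which encodes a calcium channel β subunit, a test of the difference called the naloxone effect different between 2 classes of spiny neurons. The same test called 1.42% of 13350 genes. The class by treatment term, Drd2 minus Drd1 spiny-like nuclei, was 0.35 on the log2 scale (SE 0.089, edgeR adjusted p = 0.0418, 3 libraries a group). Cacnb1 stood at 55.6, 57.6 and 58.5 CPM after saline and at 44.3, 45.7 and 53.4 CPM after naloxone in Drd1 spiny-like nuclei, and at 58.6, 67.2 and 57.4 CPM and 51.6, 68.6 and 69.4 CPM in Drd2 spiny-like nuclei. Over the alternatives the term ran from 0.16 to 0.43 and its adjusted p from 0.00482 to 0.913. It was not called with DESeq2, with at least 1000 genes per nucleus or with nuclei assigned one by one. Nor was it called without saline replicate 1 (adjusted p = 0.141), saline replicate 3 (0.340), naloxone replicate 5 (0.395) or naloxone replicate 6 (0.104).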

How the results depend on the processing

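Naloxone calls were few and moved with the settings. DESeq2 called 1 channel gene over all nuclei (Cacnb3, in place of 0), 1 in Drd2 spiny-like nuclei (Scn3a, 0), 4 in committed precursor-like nuclei (in place of 1), 5 over all classes (in place of 1) and 0 for the class by treatment terms (in place of 1). Of all genes it called 396 over all nuclei, 156 in Drd2 spiny-like and 56 in committed precursor-like nuclei, where edgeR called 7, 82 and 23. For the other alternatives the counts over all genes are not reported here. With no filter on low counts 1 gene was called in astrocyte-like (Cacna1e), Drd2 spiny-like (Scn3a), oligodendrocyte precursor-like (Cacng3) and Pthlh interneuron-like nuclei (Cacna2d1), where 0 were called before, 6 in committed precursor-like nuclei and 10 over all classes. At least 1000 genes per nucleus gave 0 in committed precursor-like nuclei and 0 class by treatment calls. Keeping doublets, assigning nuclei one by one or adjusting over all class fits gave 0 calls in committed precursor-like nuclei and 0 over all classes. Nuclei assigned one by one also gave 0 class by treatment calls and 17 calls between Drd2 and Drd1 spiny-like nuclei (in place of 11), and turned the direction of Cacnb2 in microglia-like (-0.065) and Cacng3 in oligodendrocyte precursor-like nuclei (0.21), neither of them called. Resolution 0.5 gave 2 class by treatment calls in all, with 1 for Chst9 against Drd2 spiny-like nuclei (Cacnb1). The cause was not tested. Leaving out 1 library gave 0 to 4 calls over all nuclei, 0 to 2 in astrocyte-like nuclei (2 without naloxone replicate 5), 0 to 5 in committed precursor-like nuclei, 0 to 5 over all classes, 0 to 1 class by treatment calls and 7 to 9 calls between Drd2 and Drd1 spiny-like nuclei. The other class comparisons kept their counts within 1.5 times under the alternatives run. Resolution 0.5 gave no Casz1 or committed precursor-like class, and 1000 genes per nucleus too few endothelial-like nuclei. No paired analysis was possible because the saline and naloxone libraries share no replicate number. Depth limits the small classes, with as few as 136 channel UMIs per library in committed precursor-like nuclei.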
